A study of Mus musculus with 40 samples.

Results

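The genes described here carry out DNA recombination and repair in 5 bacteria of the mouse cecum. Members were chosen by symbol: after removal of a trailing copy number, the symbol had to begin with add, rec, uvr or ruv, or to be mutS, mutL, mutS2, lexA, radA or polA. This gave 151 members of the 16742 features in the 5 genome tables (18455 features with a sixth table, Alistipes, which the rule leaves out). Acetatifactor held 44 members, L.bacterium335 29, D. muris 31, F. rodentium 30 and X. muris 17, and 15 of the 28 distinct symbols were present in all 5 genomes. A low-count filter that did not use the symbols left 76 members to be tested, namely 28 in F. rodentium, 17 in D. muris, 17 in L.bacterium335, 10 in Acetatifactor and 4 in X. muris. Of the 75 members not tested, 5 had 0 counts in every library. A gene that passed the filter only through the diet in which it was high had to differ between diets, so counts among tested members are descriptions of those members and not of all 151.

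The animals were C57BL/6 mice that entered the study at 3 weeks of age. All groups ate the Total Western Diet, a rodent diet with Western-type nutrient levels, for 6 weeks, and then for a further 3 weeks with broccoli powder at 0% (the controls), 0.5%, 1% or 2.5% of the diet. RNA was sequenced from the cecal contents after depletion of bacterial ribosomal RNA, in 40 libraries, 10 per diet. The labels give neither sex nor cage, and they do not say that each library is a separate mouse, so the p-values measure the spread between these libraries.

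Bacterial recombination centres on RecA, which coats single-stranded DNA and pairs it with a matching duplex, and whose active filament also triggers self-cleavage of LexA, the repressor of the SOS response to DNA damage. Broken ends are trimmed for RecA by AddAB or by its functional counterpart RecBCD, gaps are prepared by RecF, RecO and RecR, and the resulting junctions are moved and cut by RuvA, RuvB and RuvC or, in many Gram-positive bacteria, by RecU. UvrA, UvrB and UvrC cut out bulky lesions, MutS and MutL find and mark mismatched bases, and DNA polymerase I (polA) fills the gaps. Some symbols of the rule stand apart from these roles. uvrY, found once in D. muris, is a response regulator of a sensory system and no repair enzyme, mutS2 encodes a relative of MutS that is not the mismatch sensor itself, and recD2 encodes a RecD-like helicase that works without RecB and RecC. Symbols with a copy number (such as ruvB_1) stand for family copies, and how far their counts can be kept apart is uncertain, since no source used here gives the treatment of reads shared between copies or genomes.

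Values are CPM, counts scaled to a common total of the same bacterium's counts, so a gene can only go up or down against the other genes of its genome. In such pooled contents, fewer cells of a bacterium and less RNA per cell cannot be told apart. Only libraries that reached 10000 counts of a genome entered its fit: all 10 per diet in Acetatifactor and L.bacterium335, 9, 9, 10 and 9 in D. muris (0, 0.5, 1 and 2.5%), 10, 10, 10 and 8 in F. rodentium and 7, 7, 10 and 9 in X. muris. Median totals went from 511300 counts at 0% to 75070 at 2.5% in F. rodentium, and the other way in the others, from 83650 to 525400 in L.bacterium335, 35240 to 129500 in Acetatifactor, 25670 to 91090 in D. muris and 16000 to 120000 in X. muris. A pair of libraries stood apart. In the 2.5% library of replicate 9, only 15.2% of the L.bacterium335 features and 3 of its 29 members were detected, with 101772 counts. In the 2.5% library of replicate 8, 14.9% of the Acetatifactor features and 3 of its 44 members were detected, with 28575 counts. Without the former, 14 tested members of L.bacterium335 were still called higher and 3 lower at 2.5%, and without the latter 9 of Acetatifactor were still called higher. Adjusted p-values come from edgeR (two-sided quasi-likelihood test, Benjamini-Hochberg over all tested features of the genome), and a gene is called where that value is below 0.05. Each log2 fold change is given ± its standard error. The 3 comparisons with 0% share their controls.

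How the number of called members compared with the rest of each genome differed between bacteria. At 2.5% against 0%, 9 of 10 tested members were called higher and 0 lower in Acetatifactor, where 54.6% of all tested features were called higher and 22.6% lower. In L.bacterium335 14 of 17 were called higher and 3 lower, beside 77.8% and 14.8% of all tested features. In F. rodentium 1 of 28 was higher and 1 lower, beside 5.39% and 4.03%, and in D. muris 1 of 17 was higher and 0 lower, beside 3.79% and 6.68%. In X. muris 0 of 4 were called by edgeR, 0 by DESeq2 and 0 at an unadjusted p under 0.05, while 9.55% of its tested features were higher and 1.49% lower. The split of all features depended on scaling: with RLE factors in place of TMM, 543 were higher and 18 lower in Acetatifactor (TMM 422 and 175), 1146 and 30 in L.bacterium335 (TMM 1077 and 205), 106 and 42 in F. rodentium (TMM 91 and 68) and 29 and 12 in X. muris (TMM 64 and 10). Scaled to ribosomal protein genes, it was 51 and 157 in Acetatifactor and 45 and 20 in F. rodentium. That scaling kept only libraries with at least 50 ribosomal protein counts, which left out Acetatifactor controls. The share of members called in either direction was thus close to the share of all features in L.bacterium335, D. muris and F. rodentium, and the lists in those genomes are read below gene by gene.

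**Figure D1:**
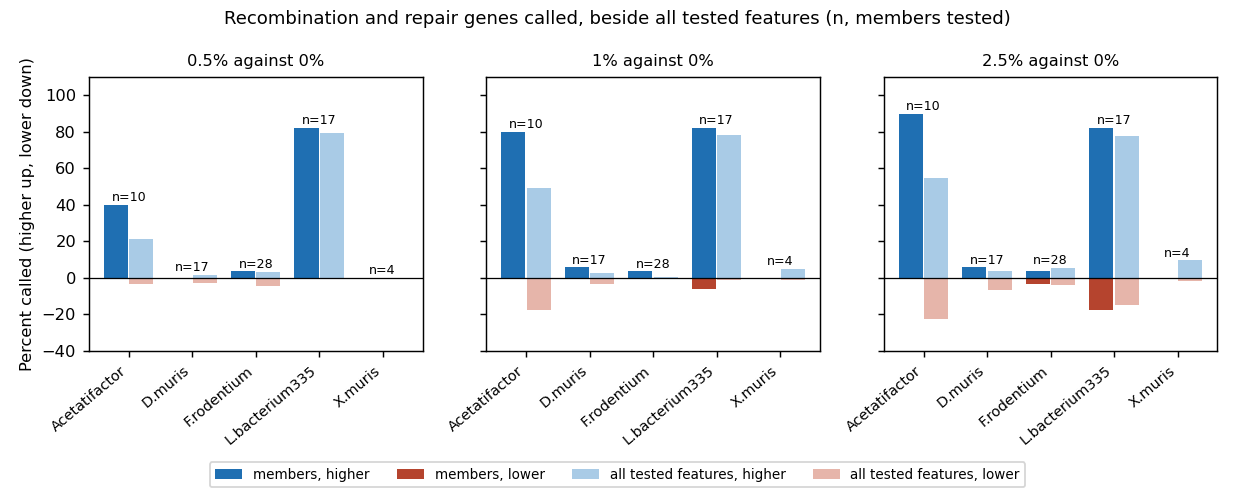
Percent of tested features called higher (upward bars) or lower (downward bars) than 0% broccoli, for the recombination and repair genes (dark) and all tested features (light) of 5 bacteria, in 3 panels for 0.5%, 1% and 2.5% broccoli, with the number of tested members above each pair. Members follow the light bars of their own genome in L.bacterium335 and stay near 0 in the genomes of F. rodentium, X. muris and D. muris, and in Acetatifactor the dark bars reach 90% at 2.5% beside 54.6% of all features.

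In F. rodentium 26 of 28 tested members did not pass the test at 2.5% while 2 genes of broken-end processing moved in opposite directions. recD rose from 0 counts without broccoli and addA fell. recD encodes the helicase subunit that in other bacteria works with RecB and RecC, and addA encodes a subunit of the AddAB helicase-nuclease. The F. rodentium table holds addA, addB, recD and recD2 but no recB symbol, which occurred only in D. muris.

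recD of F. rodentium had 0 counts in each of the 10 libraries at 0%, which together held 6582564 F. rodentium counts. That depth allows a level of up to 0.456 CPM (3 counts over the group, counting error only). All 10 libraries at 0.5% had recD counts, at 7.42 CPM in the lowest, 38.8 at the median and 93.7 in the highest. At 1%, 6 of 10 libraries had counts (median 20.7, highest 52.2). The 4 libraries at 0 held only 26963 to 109341 F. rodentium counts, against 191412 to 1148333 in the 6 that had them. At 2.5%, 7 of 8 libraries had counts, with a median of 112 and a highest value of 235 CPM. The library at 0 there was replicate 10, with 104238 F. rodentium counts. So at 0.5% every library lay above all the controls, while at 1% and 2.5% the ranges met at 0.

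Because the controls had no count, only lower bounds of the change are given. With 3 counts over the control group as the floor, recD was at least 94.2-fold higher at 0.5%, at least 67.8-fold at 1% and at least 294-fold at 2.5%. recD passed the low-count filter through the broccoli libraries alone, so it had to differ from the controls, and its adjusted p-values of 7.41e-08, 4.88e-06 and 3.15e-09 are given as a description. At 0.5% this was 1 of the 57 features called higher (3.37% of those tested, with 4.62% lower), and at 1% it was 1 of only 7 (0.414%, with 0% lower). The counts themselves were small, 447 at 0.5%, 134 at 1% and 210 at 2.5%. Of 1689 tested features of F. rodentium, 3 had 0 counts in every control library, recD and 2 features that carry no gene symbol. Between 2.5% and 0.5%, recD did not pass the test (adjusted p = 0.159). There 0 of 28 members were called by edgeR, 0 by DESeq2 and 2 were at an unadjusted p under 0.05, beside 1.3% of all features higher and 1.72% lower. The related helicase gene recD2 was present at every dose, at 343, 452 and 582 CPM (lowest, median and highest) at 0% and 247, 380 and 594 at 2.5%, and its change of -0.20 ± 0.16 did not pass the test (adjusted p = 0.485). The same symbol, recD, had 1 count at 0% and 1461 at 2.5% in L.bacterium335. Whether reads of one bacterium were counted on the gene of another was not tested.

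addA went the other way. Its level at 0% was 1068 CPM in the lowest library, 1410 at the median and 2270 in the highest, and at 2.5% it was 399, 807 and 1279. Each of the 8 libraries at 2.5% was under the control mean and 5 of them were under every control, so the groups overlapped. The log2 fold change was -0.76 ± 0.22 (adjusted p = 0.0233). The slope on the percent of broccoli was also called (-0.27 per percent, adjusted p = 0.0496). It was called upward for recD (adjusted p = 0.0103), a description because the recD controls were at 0. Beside them, 3.32% of all features had a called positive and 2.31% a called negative slope. Of 38 omissions of a single library, 17 left 1 member with a called slope in place of 2. At 0.5% and 1% addA did not pass (log2 fold changes -0.41 and -0.28). The addA call at 2.5% was close to the threshold: the adjusted p was 0.0524 without 0% replicate 4 and 0.0505 without 2.5% replicate 3, and over leaving out each library it ranged from 0.0105 to 0.0524. It was 0.0642 without the libraries titled 76 to 81. The partner subunit addB had 777, 1112 and 1860 CPM at 0% and 565, 817 and 1360 at 2.5%, with 7 of 8 libraries below the control mean. Its log2 fold change of -0.43 ± 0.18 did not pass the test (adjusted p = 0.126).

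**Figure D2:**
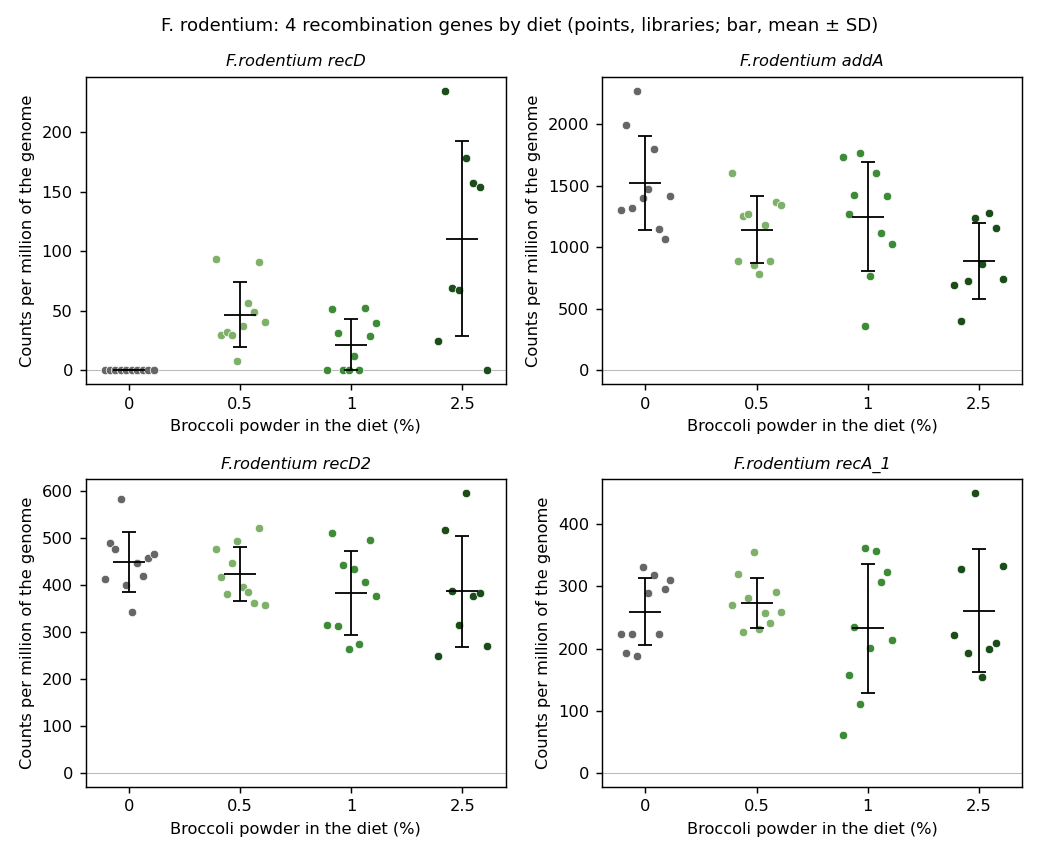
Counts CPM of the F. rodentium total for recD, addA, recD2 and recA_1 in each library (points) by percent of broccoli powder, with the mean ± SD as bars (10, 10, 10 and 8 libraries). recD sits at 0 in all control libraries and above 0 in every 0.5% library, addA is lower at 2.5%, and recD2 and recA_1 overlap across the diets.

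The other 26 tested members of F. rodentium did not pass the test at 2.5%, with log2 fold changes between -0.70 and 0.79. recA_1 had 188, 256 and 331 CPM at 0% and 154, 216 and 450 at 2.5%, a difference of -0.07 ± 0.23 (adjusted p = 0.897). The copies of the SOS repressor gene lay close to it, lexA_1 at -0.11 ± 0.22 and lexA_2 at -0.19 ± 0.23. For none of the 3 was the difference larger than the spread between libraries. A second recA copy, recA_2, had few counts (median 55.7 CPM at 0% and 17.2 at 2.5%) and a wide error, -0.70 ± 0.45.

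Among the genes of lesion excision, uvrA was at 447, 531 and 737 CPM at 0% and 322, 427 and 540 at 2.5%. All 8 libraries at 2.5% were below its control mean, yet the change of -0.37 ± 0.16 did not pass (adjusted p = 0.123). Its partners uvrB (-0.08 ± 0.34) and uvrC (0.31 ± 0.22) gave no common direction. For mismatch repair, mutL was nearly level (-0.02 ± 0.17), from 410, 556 and 653 CPM to 352, 528 and 915, and mutS was at -0.39 ± 0.22 (adjusted p = 0.246). For the junction genes the changes were 0.79 ± 0.35 for ruvA (adjusted p = 0.137), -0.11 ± 0.25 for ruvB_1 and 0.00 ± 0.21 for ruvB_2. radA, a helicase gene that helps extend recombination branches, was at -0.56 ± 0.33, and polA was at -0.08 ± 0.17 with 1081, 1448 and 1658 CPM at 0% and 1120, 1346 and 1657 at 2.5%. The smallest adjusted p among these 26 was that of recJ, a single-strand exonuclease gene, at 0.0825 (0.53 ± 0.20). The summed share of the F. rodentium counts on its members was likewise similar across diets, with medians of 1.01% at 0%, 0.936% at 0.5%, 0.890% at 1% and 0.973% at 2.5%. Only 3 of 8 libraries at 2.5% exceeded every control.

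D. muris had 1 called member at 2.5%, mutL, whose product couples mismatch recognition to repair. Its level at 0% was 239, 427 and 636 CPM, at 0.5% 340, 519 and 819, at 1% 412, 506 and 913, and at 2.5% 504, 666 and 850. All 9 libraries at 2.5% lay above the control mean and 5 above every control. The log2 fold change was 0.71 ± 0.23 (adjusted p = 0.0312). It did not pass at 0.5% (0.42) or 1% (0.54), nor did the slope (adjusted p = 0.0733), and it rested on counts between 3 and 18 a library in the controls and between 42 and 106 at 2.5%. The call rested on single libraries: without 0% replicate 4, 8 or 9 or without 2.5% replicate 3 or 5, the adjusted p lay between 0.0511 and 0.0757, and over leaving out each library it ranged from 0.0111 to 0.0757. With the genome total as a covariate it was 0.497.

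The other 16 tested members of D. muris did not pass at 2.5%. Of all 17 log2 fold changes 15 were above 0, beside 623 of the 1108 tested features. The genes share their libraries, and this count was not tested. The median over the 17 was 0.37, beside 0.08 over all 1108 tested features. polA stood at 247, 522 and 1277 CPM at 0% and 562, 699 and 1167 at 2.5%. All 9 libraries at 2.5% were above the control mean, but none was above the highest control, and the change of 0.63 ± 0.28 did not pass (adjusted p = 0.154). Without 0% replicate 9, the control with the highest polA value, it was 0.87 (adjusted p = 0.0351). The branch migration helicase gene recG was at 0, 70.7 and 225 CPM at 0% and 95.2, 181 and 451 at 2.5%, a change of 1.04 ± 0.53 (adjusted p = 0.241).

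recA of D. muris was at 173, 353 and 702 CPM at 0% and 257, 366 and 815 at 2.5%, a difference of 0.19 ± 0.33 (adjusted p = 0.781). The excision genes gave 0.55 ± 0.35 for uvrB, 0.75 ± 0.41 for uvrA_2 and -0.34 ± 0.47 for uvrA_1, with the smallest adjusted p at 0.284. The mismatch sensor copies mutS_2 (0.37 ± 0.41) and mutS_4 (0.12 ± 0.55) and the exonuclease subunit gene recB (0.24 ± 0.26) also did not pass. recJ, with the smallest standard error of the list, was at 429, 1197 and 1921 CPM at 0% and 974, 1188 and 1849 at 2.5% (0.12 ± 0.18). Of the members that were too low to test, radA had 26 counts at 0% and 112 at 2.5%, ruvA 16 and 99, ruvB 27 and 85 and uvrC 11 and 121.

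The response regulator gene uvrY was the member called at 1% (log2 fold change 2.53 ± 0.73, adjusted p = 0.0277), where 2.53% of all tested features were called higher and 3.61% lower. Its values were 0, 53.4 and 211 CPM at 0%, 0, 113 and 390 at 0.5%, 0, 432 and 1018 at 1% and 23.8, 233 and 571 at 2.5%. At 2.5% the change of 1.86 ± 0.74 did not pass (adjusted p = 0.107). The 1% call was lost without 0% replicate 1, 6 or 9 or without 1% replicate 3. Over the controls uvrY had 17 counts, and it was at 0 in 4 of the 9 kept. It can thus have passed the low-count filter through the broccoli libraries, so its adjusted p-values are descriptions.

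At 0.5% against 0%, 0 of 17 were called by edgeR, 0 by DESeq2, 0 were at an unadjusted p under 0.05, and 1.53% of all tested features were higher and 2.89% lower. Between 2.5% and 0.5%, 0 of 17 were called by edgeR, 0 by DESeq2 and 1 was at an unadjusted p under 0.05 (0.0903% of all features higher, 0.361% lower). The slope was called for 0 by edgeR and 1 by DESeq2, with 2 at an unadjusted p under 0.05, beside 1.9% and 5.6% of all features. As a share of the D. muris counts, the members summed to 0.571% at the 0% median (0.474 to 0.660%) and to 0.848% at 2.5% (0.628 to 0.957%), with 8 of 9 libraries above every control. The median total of the genome also rose over these groups, and its part in this share was not tested.

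**Figure D3:**
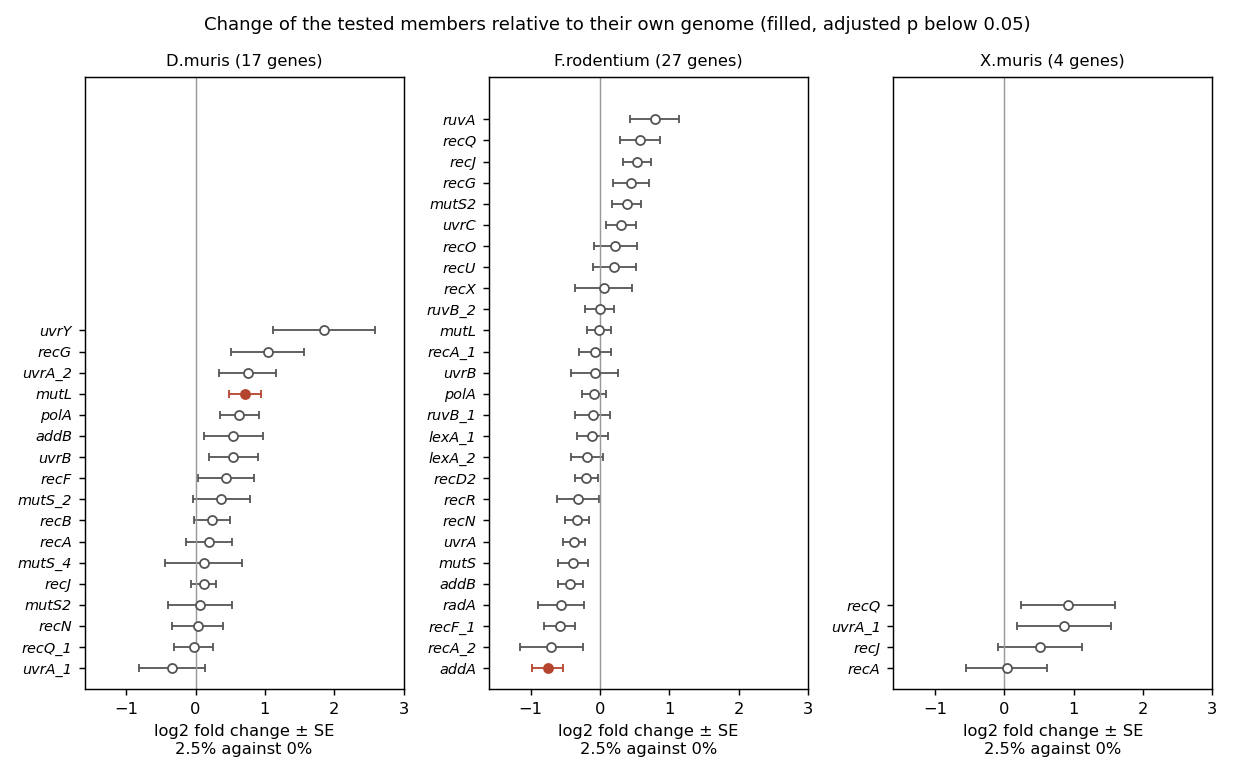
Log2 fold change ± SE at 2.5% against 0% broccoli of each tested member relative to its own genome in D. muris (17 genes), F. rodentium (27 genes, recD left out because its controls were at 0) and X. muris (4 genes), with called genes filled. Most points lie within 1 unit of 0, mutL of D. muris and addA of F. rodentium are the filled ones, and uvrY of D. muris lies farthest right at 1.86 without passing.

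Acetatifactor differed in that 9 of its 10 tested members were called higher at 2.5%, with a median log2 fold change of 2.64 beside 1.81 over all 773 tested features. Most of these genes had 0 counts in most control libraries. Such genes can have passed the low-count filter through the broccoli libraries alone, so their adjusted p-values are given as descriptions. recA was at 0 in 7 of 10 controls (highest 299 CPM) and at 247 or more in 9 of 10 libraries at 2.5%, where the median was 303 and the highest 689. The log2 fold change was 2.69 ± 0.81 (adjusted p = 0.0033). The junction motor gene ruvB_1 went from 0 in 7 controls (highest 197) to a median of 468 and a highest value of 737, a change of 3.48 ± 0.79 (adjusted p = 2.07e-04). The remaining library was replicate 8, which was at 0 for each of the 9 genes. In the other 9 libraries at 2.5%, ruvB_1, recR and uvrA_1 were above every control, while polA_1 was so in 1, recD in 3, lexA_1 in 4, recA and mutS2_3 in 5 and mutS_1 in 7.

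The SOS repressor copy lexA_1 rose by a log2 fold change of 2.59 ± 0.76 (adjusted p = 0.00271), from a highest control value of 277 to a median of 234 and a highest of 500 CPM. mutS_1 changed by 2.88 ± 0.79 (adjusted p = 0.00149), polA_1 by 2.37 ± 0.81 (adjusted p = 0.00793), recD by 2.56 ± 0.79 (adjusted p = 0.00361) and mutS2_3 by 1.87 ± 0.67 (adjusted p = 0.0106). The damage sensor copy uvrA_1 had 0 counts in all controls and 370 at 2.5%, which was at least 20.02-fold higher. recR, a gap-repair gene, had 3 counts at 0% and 328 at 2.5%, a ratio of 17.7 (95% counting interval 6.02 to 86.5). The member that did not pass was recD2_2, which had counts in all 10 controls, at 171, 692 and 1606 CPM, and 0, 307 and 1887 at 2.5% (-0.91 ± 0.64, adjusted p = 0.183).

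At lower doses the same direction appeared. At 1%, 8 of 10 members were called higher, beside 49.4% of all tested features higher and 17.7% lower, and recR and uvrA_1 were above every control in all 10 libraries. At 0.5%, 4 of 10 were called higher, beside 21.1% higher and 3.36% lower. They were uvrA_1 (at least 9.69-fold higher), ruvB_1 (2.62 ± 0.80), mutS_1 (2.41 ± 0.82) and recR (ratio 7.75, interval 2.45 to 39.3). Between 2.5% and 0.5%, 0 of 10 were called by edgeR, 0 by DESeq2 and 2 were at an unadjusted p under 0.05, while 1.03% of all features were higher and 7.12% lower. With RLE factors 7 of 10 were called higher in this contrast. The share of all features under RLE is not given for it, so that number is no result about the members. The slope was called for 7 members, beside 41.3% of all tested features with a positive slope and 21.6% with a negative one. No member kept that call under ribosomal protein scaling, a covariate for the genome's total, a minimum of 50000 counts per library or 50% of features detected (0 called in each). The shares of all features under those settings are not given, so these numbers are no result about the members.

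These Acetatifactor values moved with the breadth of the counts. The number of its 44 members with any count in a library had a median of 6.5 at 0%, 18.5 at 0.5%, 32 at 1% and 36.5 at 2.5%, and the 5 highest features took a median of 56.8% of its counts at 0% and 28.7% at 2.5%. With the genome total as a covariate 3 members were called at 2.5%. The share of all features called with that covariate is not given, so that number is no result about the members. Scaled to its ribosomal protein genes 2 were, where 51 of all features were higher and 157 lower. That scaling kept only libraries with at least 50 ribosomal protein counts. In the controls these genes held a median of 0.0457% of the counts, so control libraries were lost as well. Those ribosomal protein genes rose alongside, 11 of 12 tested being called higher with a median log2 fold change of 2.51. Among the 34 members that were not tested, mutL had 0, 37, 91 and 282 counts at 0, 0.5, 1 and 2.5% and uvrC had 3, 12, 39 and 127. recD2_1 and the exonuclease gene recJ, both at 0 counts in the controls, had 295 and 290 at 2.5%. The untested junction and excision genes included ruvA (0, 4, 15 and 58 counts) and uvrB_1 (8, 16, 49 and 244).

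**Figure D4:**
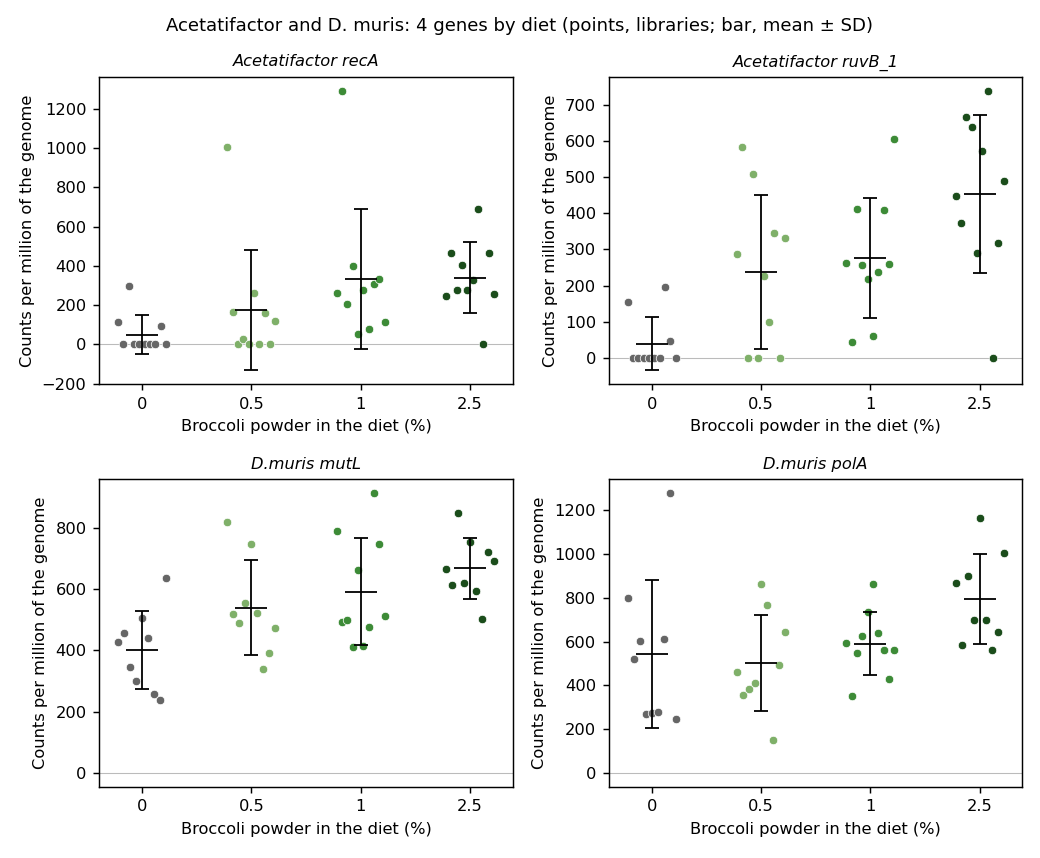
Counts CPM of the genome in each library (points) by percent of broccoli powder for recA and ruvB_1 of Acetatifactor (10 libraries per diet) and mutL and polA of D. muris (9, 9, 10 and 9 libraries), with the mean ± SD as bars. The Acetatifactor genes sit at 0 in 7 of 10 controls and in 1 library at 2.5%, whereas the D. muris genes are above 0 in every library and their diets overlap.

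In L.bacterium335 the contrast between diets was one of presence in the counts. Of its 29 members, 25 had 0 counts in all 10 control libraries, which together held 757208 counts of the genome. The 25 members had 2298 counts at 0.5%, 5866 at 1% and 24555 at 2.5%. Much of the rest of the genome shared this. Of the 17 tested members, 13 had 0 counts in every control, beside 65.2% of all tested features. The 3 tested members that were called lower at 2.5%, radA_2, recF_1 and recD2_1, were also the ones that held 1061 of the 1062 member counts at 0%. At 2.5% they held 6.94% of the member counts.

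The 13 tested members at 0 in the controls included mutL, which had 0, 289 and 549 CPM at 2.5% and was at least 92.2-fold higher. Likewise, mutS_2 was at least 83.3-fold, its relative mutS2 at least 80.9-fold, polA at least 75.99-fold and mutS_1 at least 62.2-fold higher at that dose. The SOS repressor gene lexA was at least 61.0-fold higher, with 0, 237 and 300 CPM at 2.5%, and the damage sensor gene uvrA at least 48.1-fold higher, with 0, 155 and 308. uvrC was at least 44.5-fold and radA_1 at least 41.6-fold higher. Each of these except mutS_2 was at 0 in the 2.5% library of replicate 9, and mutS_2 had 1 count there, so that among these genes its groups alone did not overlap. For broken-end processing, addA was at least 39.1-fold and addB at least 60.2-fold higher, and recD, with 1 count at 0%, gave a ratio of 164 (95% counting interval 29.4 to 6485).

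For the 13 genes the bounds ran from 23.1- to 74.2-fold at 0.5%, from 23.4- to 92.9-fold at 1% and from 30.3- to 92.2-fold at 2.5%. These 13 and recD passed the low-count filter through the broccoli libraries, so their calls against 0% and for the slope are descriptions. They were called higher at each dose. At 0.5% that was 14 of 17 tested members beside 79.3% of all tested features higher and 0.578% lower, and at 1% 14 of 17 beside 78.3% and 1.37%. Between 2.5% and 0.5% none of the 14 was called, while 0.723% of all features were higher and 11.8% lower. That depends on scaling, since with RLE factors 14 of the 17 tested members were called higher and 1 lower in this contrast. The share of all features under RLE is not given for it, so those numbers are no result about the members. The slope on broccoli percent was called for 9 members above 0 and 2 below (33.6% and 11.9% of all features). The number called was 2 under ribosomal protein scaling and 0 with a covariate for the genome's total. It was 2 with a minimum of 50000 counts per library and 3 with 50% of features detected. The shares of all features under those settings are not given, so these numbers are no result about the members. With genes at a bound set to it, the median log2 fold change at 2.5% was 5.59 over the tested members and 5.30 over all tested features. Among the 13, uvrA was the gene with counts in 10 of 10 libraries at both 0.5% and 1%.

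Among the 12 members that were not tested, recA had 0, 40, 101 and 487 counts at 0, 0.5, 1 and 2.5%, ruvB 0, 28, 70 and 438, ruvA 0, 29, 45 and 133 and uvrB 0, 37, 75 and 571. All 12 had 0 counts in the controls. At 2.5% their counts ranged from 76 to 571.

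radA_2 was the member that fell most, from 19.5, 106 and 344 CPM at 0% to 0, 5.39 and 18.9 at 2.5%. Every one of the 10 libraries at 2.5% was under the lowest control, and the log2 fold change was -4.27 ± 0.69 (adjusted p = 9.40e-09). That lowest control, replicate 9, held 1 count of radA_2 (19.5 CPM), and 2.5% replicate 10 held 16 (18.9 CPM). The lack of overlap thus rests on 1 count and on the TMM factors of these libraries (0.878 and 1.49). The radA_2 values at 0.5% (0, 53.6 and 690) and at 1% (15.7, 40.4 and 480) overlapped the controls and did not pass. The fall was also called between 2.5% and 0.5% (-4.30, adjusted p = 1.03e-05), where 11.8% of all features were called lower. In raw counts it went from 108 at 0% to 49 at 2.5% although the genome's total rose. The other copy, radA_1, was among those at 0 in the controls, and how reads were divided between the copies was not tested.

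recF_1, named for the gap-repair protein RecF, was at 84.1, 517 and 1099 CPM at 0%, 142, 640 and 1505 at 0.5%, 156, 352 and 1919 at 1% and 29.7, 103 and 276 at 2.5%. Each of the 10 libraries at 2.5% was under the control mean and 5 were under every control (-2.34 ± 0.58, adjusted p = 1.19e-04), and the drop was also called against 0.5% (-2.67, adjusted p = 6.82e-04). recD2_1 was at 137, 321 and 1636 CPM at 0% and 103, 155 and 1303 at 2.5%, the highest of these being replicate 9. Its change was -1.22 ± 0.57 (adjusted p = 0.0361), and it was the member called lower at 1% (-1.19 ± 0.57, adjusted p = 0.0485). Both depend on how the libraries are scaled. With RLE factors in place of TMM, recF_1 changed by -0.11 (adjusted p = 0.835), recD2_1 by 0.71, turning its direction (adjusted p = 0.216), and radA_2 by -1.80 (adjusted p = 0.00601). With the genome total as a covariate, recF_1 was at -0.71 and recD2_1 at -0.40, neither of which passed. In raw counts recF_1 went from 411 to 620 and recD2_1 from 542 to 1271. The recD2_1 call was also lost without 0% replicate 5, 7 or 9 (adjusted p 0.111, 0.0540 and 0.0991), and its adjusted p ranged from 2.43e-04 to 0.111 over leaving out each library.

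**Figure D5:**
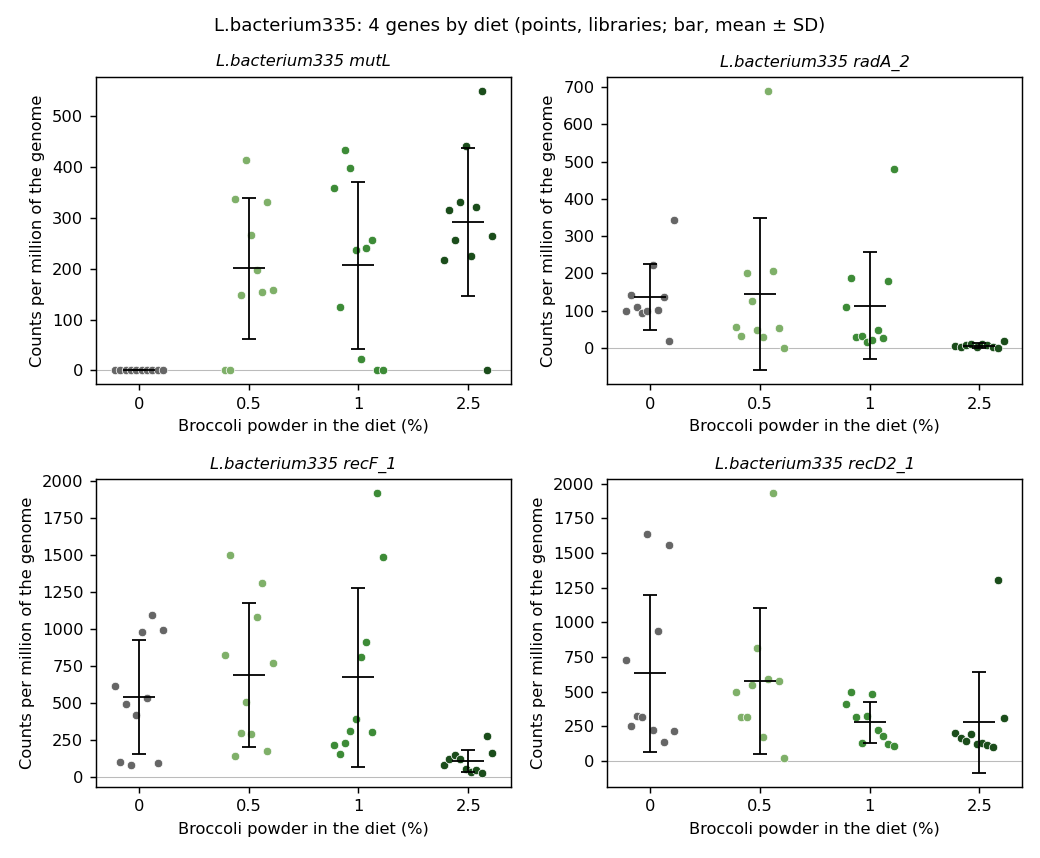
Counts CPM of the L.bacterium335 total for mutL, radA_2, recF_1 and recD2_1 in each of 10 libraries per diet (points) by percent of broccoli powder, with the mean ± SD as bars. mutL is at 0 in all controls and in 1 library at 2.5%, and radA_2 is below 18.9 in the 2.5% libraries apart from the highest, which is at that value. recF_1 and recD2_1 overlap, and their fall was called under TMM scaling. With RLE factors neither passed, and recD2_1 turned its direction.

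X. muris had 156 member counts at 0% and 3248 at 2.5% over its 17 members. Of the 4 tested, recA was at 0, 167 and 488 CPM at 0% and 19.8, 221 and 267 at 2.5% (0.03 ± 0.58, adjusted p = 0.966). uvrA_1 was at 0, 0 and 388 CPM at 0% and 39.7, 191 and 237 at 2.5%, and its change of 0.86 ± 0.68 did not pass (adjusted p = 0.447). The helicase gene recQ (0.92 ± 0.68) and recJ (0.52 ± 0.61) also did not pass. In the other comparisons 0 of 4 were called as well, by edgeR or by DESeq2, and 0 were at an unadjusted p under 0.05. All features were called higher and lower in 5.07% and 1.19% at 1%, 0% and 0% at 0.5%, 1.79% and 3.43% between 2.5% and 0.5%, and 4.63% and 2.84% for the slope. The 13 other members had more counts at 2.5% than at 0%, such as polA with 5 and 253 and mutS with 5 and 219, as did the genome as a whole. The share of the X. muris counts on all 17 members had a median of 0.0295% at 0% (0.00561 to 0.188%) and 0.231% at 2.5% (0.134 to 0.316%). Over the same groups the 5 highest features fell from a median of 89.9% of its counts to 53.2%, and the part of this in the member share was not tested.

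Where the same symbol, with no copy number, was tested in 2 bacteria, the change at 2.5% could be compared within libraries. For each library the log2 level in one bacterium was subtracted from that in the other. The 2.5% and 0% means of this difference were then compared (permutation test, two-sided, adjusted over 33 pairs). Of these pairs 20 passed, 16 of them against L.bacterium335, where the controls held almost no counts. The small p-values of those 16 entered the adjustment and lower the adjusted p of the other pairs. The adjustment was not repeated without them, so unadjusted values are given beside the adjusted ones that passed. In D. muris minus F. rodentium, mutL differed by 0.80 (0.75 in D. muris and -0.05 in F. rodentium, permutation test, unadjusted p = 0.00374, adjusted p = 0.00726), and all 8 libraries at 2.5% exceeded the control mean. polA differed by 0.79 in the same direction (permutation test, unadjusted p = 0.0256, adjusted p = 0.0422, 8 of 8), which was 0.74 without the libraries titled 76 to 81 (adjusted p = 0.0660). recG (1.29, permutation test, adjusted p = 0.0597) and uvrB (1.68, adjusted p = 0.0657) pointed the same way and did not pass. recJ (-0.35, permutation test, adjusted p = 0.316) did not pass either.

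For the pairs with L.bacterium335 the sizes are set by the prior count of 2, and these genes passed the filter there through the broccoli libraries, because its controls held 0 counts of each gene and 1 count of recD. They are therefore given as descriptions with no test. The 9 genes other than recD that were tested in both F. rodentium and L.bacterium335, namely addA, addB, mutL, mutS2, polA, recG, recN, uvrA and uvrC, differed by -4.08 to -5.54, and 6 genes in D. muris by -3.18 to -4.90. recD had 0 control counts in F. rodentium and 1 in L.bacterium335, so its changes in these bacteria are given above as a lower bound and a ratio and are not set against each other. Of the Acetatifactor genes, recA differed from D. muris by 2.18 (permutation test, unadjusted p = 0.0145, adjusted p = 0.0251). With a prior count of 0.5 the difference was 3.26, so its size depends on the prior count. Both recA and recR of Acetatifactor can have passed the filter through the broccoli libraries alone, so their p-values here are descriptions. The median change over all tested features was 1.81 in Acetatifactor and 0.08 in D. muris. The Acetatifactor median depends on scaling, and no pair was compared under RLE factors or ribosomal protein scaling. recR, with 3 control counts in Acetatifactor, differed from F. rodentium by 2.97 (permutation test, unadjusted p = 1.9e-04, adjusted p = 3.92e-04), a size that also depends on the prior count. recA in Acetatifactor and X. muris differed by 1.20, which did not pass (permutation test, adjusted p = 0.332).

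Other genes of DNA metabolism gave the background to these lists. At 2.5%, the shares of all tested features called higher and lower were 54.6% and 22.6% in Acetatifactor and 77.8% and 14.8% in L.bacterium335. They were 3.79% and 6.68% in D. muris, 5.39% and 4.03% in F. rodentium and 9.55% and 1.49% in X. muris. Of the DNA replication genes, 10 of 17 tested were called higher and 1 lower in Acetatifactor at 2.5%, 14 of 15 higher in L.bacterium335, 1 higher (dnaC, of the helicase loader) and 1 lower (gyrB_1, of DNA gyrase) of 12 in D. muris and 1 lower (gyrB) of 19 in F. rodentium. Of 8 in X. muris 0 were called by edgeR and 0 were at an unadjusted p under 0.05. Their medians were 2.54, 7.91, 0.17, -0.01 and 0.58 in that order of bacteria. Among further repair and recombination genes outside the rule, those called lower were all copies of xerC or xerD. In D. muris 4 of 9 were called lower, all copies of xerC, a site-specific recombinase gene (xerC_5, xerC_6, xerC_7 and xerC_13), and in Acetatifactor 5 of 9 were lower, all copies of xerC or xerD, with pcrA, a repair helicase gene, higher. In L.bacterium335 7 of 10 were higher (dinB, nfo_2, ung, xseA, xerC_10, xerD_1 and xerD_3) and 3 copies of xerC lower. In F. rodentium 1 of 18 was called, ogt, a methyltransferase gene of direct base repair, which was higher. Ribosomal protein genes were called higher for 29 of 33 in L.bacterium335 and 2 of 38 in D. muris. Of 42 in F. rodentium 0 were called by edgeR and 2 were at an unadjusted p under 0.05.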

How the data were processed

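Counts of reads per annotated feature were deposited by the authors as 1 raw count table per bacterial genome, covering 40 libraries of cecal RNA, with no normalization. The aligner, the counting program, the genome builds and the treatment of reads shared between genomes are named in none of the sources used. The members and gene lists were chosen with earlier results of these data known.

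For each genome, stable RNA features were removed, libraries with at least 10000 counts were kept, and low features were filtered with edgeR's filterByExpr (edgeR 4.0.16, R 4.3.3). TMM factors and a robust quasi-likelihood fit over all 4 diets gave the contrasts of 2.5, 1 and 0.5% with 0%, of 2.5 with 0.5%, and the slope on percent broccoli. p-values were Benjamini-Hochberg adjusted within each genome and contrast, with a threshold of 0.05. Genes at 0 counts in the controls are given as lower bounds against 3 counts over the group, and genes at 1 to 3 counts as ratios with exact 95% counting intervals, which cover counting error only. The same gene was compared between bacteria on log2 CPM (prior count 2) with 100000 resamples. The fit and the permutation test were tested on simulated data. No library pair held identical counts in the 180 pairs compared.

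Named genes were, in each genome, recA, lexA, uvrA, uvrB, uvrC, ruvA, ruvB, mutS, mutL, radA and polA, with values where tested, then up to 6 further members called in each direction at 2.5%, up to 3 called in another contrast, and the 3 with most counts among those at 0 in the controls. Other members named (such as addB, recJ, recD2, recG, recB, recQ) were chosen after their values were seen. Alternatives were RLE factors, no low-count filter, DESeq2 1.42.0, other minimum counts and breadths, the genome total as a covariate, ribosomal protein scaling, leaving out the libraries titled 76 to 81, and leaving out each library. Ribosomal protein scaling kept only libraries with at least 50 ribosomal protein counts, so its set of libraries can be smaller. The Alistipes table was left out by the rule.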

Additional observations from a re-analysis of the deposited data

Results flagged for a closer look

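Of 212 groups of libraries checked, 46 had a highest or lowest library whose gap to its neighbour took an unusually large part of the group's range on the log2 scale (Dixon's ratio). Chance alone does this in about 1 in 20 groups, and groups of different genes share libraries. The 2.5% library of replicate 9 accounted for 15 of them, all in L.bacterium335. It was lowest for lexA (0.719), mutL (0.791), mutS_1 (0.856), mutS_2 (0.812), mutS2 (0.891), polA (0.840), radA_1 (0.662), uvrA (0.736) and uvrC (0.644), and likewise for addA (0.696), addB (0.720), recD (0.847), recG (0.848) and recN (0.829). It was highest for recD2_1 (0.576). The 2.5% library of replicate 8 accounted for 9, all lowest in Acetatifactor, for lexA_1 (0.613), mutS_1 (0.746), polA_1 (0.515), recA (0.703), ruvB_1 (0.734), uvrA_1 (0.657), recR (0.578), recD (0.471) and mutS2_3 (0.783).

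Single libraries stood out for the remaining genes, most with few counts. In F. rodentium, 1% replicate 5 was lowest for lexA_1 (0.661, on 1 count), ruvA (0.674) and addA (0.473), 1% replicate 4 for radA (0.675), and 0% replicate 2 for lexA_1 (0.471) and lexA_2 (0.503). There, 2.5% replicate 4 was lowest for ruvA (0.639) and ruvB_1 (0.715), 2.5% replicate 1 for uvrB (0.607), and 0.5% replicate 5 for recD (0.511, on 3 counts). In D. muris, 1% replicate 4 was lowest for mutS_2 (0.486), and 1% replicate 9 (0.517) and 2.5% replicate 1 (0.644) were lowest for uvrA_1 with 0 counts. In L.bacterium335, 0.5% replicate 2 stood out for mutS_1 (0.585), 0.5% replicate 7 for addB (0.761), 1% replicate 6 for recG (0.487), 1% replicate 9 for recD (0.468) and 0% replicate 9 for radA_2 (0.519), while 0% replicate 5 held the 1 control count of recD (ratio 1). In Acetatifactor, 0% replicate 3 was highest for polA_1 (0.527, on 10 counts). In X. muris, 2.5% replicate 1 was lowest for recA (0.617) and 0.5% replicate 5 for uvrA_1 (0.606).

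The change at 2.5% differed between bacteria for 20 of 33 gene pairs (permutation test, adjusted over the pairs, where the L.bacterium335 pairs lower the adjusted p of the rest). The 16 pairs with L.bacterium335 rest on controls at 0 counts there (1 for recD), so their sizes are set by the prior count of 2 and they are listed as values only. Acetatifactor exceeded D. muris for recA by 2.18 (log2) and F. rodentium for recR by 2.97, and it lay below L.bacterium335 for recD (-2.10). These genes were at 0 in most Acetatifactor controls, so the sizes depend on the prior count and are descriptions. Over all tested features the median change was 1.81 in Acetatifactor, 0.08 in D. muris and 0.01 in F. rodentium. D. muris exceeded F. rodentium for mutL by 0.80 and for polA by 0.79. D. muris minus L.bacterium335 was -4.22 for addB, -4.71 for mutL, -4.90 for mutS2, -4.57 for polA, -3.18 for recG and -3.82 for recN. F. rodentium minus L.bacterium335 was -5.19 for addA, -5.46 for addB, -5.54 for mutL, -5.17 for mutS2, -5.32 for polA, -4.55 for recG, -4.48 for recN, -5.04 for uvrA and -4.08 for uvrC. In the Alistipes table, which entered no comparison, 24 symbols that meet the same name rule held 7 counts at 0%, 85 at 0.5%, 180 at 1% and 2738 at 2.5%.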

How the results depend on the processing

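No paired analysis was possible because replicate numbers were given in accession order and pair nothing. Numbers are members called, at 2.5, 1 and 0.5% against 0% where not said otherwise. The share of all features called under each setting is not given beside them. They therefore show how the calls depend on the setting and are no result about the members. In Acetatifactor (9, 8 and 4, slope 7), no low-count filter gave 34, 28 and 14, slope 25, and 1 for 2.5 against 0.5%, where RLE factors gave 7. RLE gave 9 at 0.5%. The genome total as a covariate gave 3 at 2.5%, 4 at 1% and 0 for the slope, ribosomal protein scaling 2, 0 and 0, slope 0, and leaving out libraries 76 to 81 2 at 0.5%. The slope was 0 with at least 50000 counts or with 50% of features detected. Leaving out each library gave 2 to 7 at 0.5% (7 without 0% replicate 3, 2 without 0% replicate 6 or 7) and 4 to 9 for the slope (4 without 0% replicate 5 or 2.5% replicate 2).

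In D. muris (1, 1 and 0), no filter gave 2 at 2.5%, and the covariate and ribosomal protein scaling gave 0. At 1%, 50% breadth and the covariate gave 0. The slope was 1 with DESeq2 and with 50% breadth. Leaving out each library gave 0 to 1 at 2.5% and at 1% and 0 to 2 for the slope (2 without 0.5% replicate 6, 1 without 0% replicate 9 or 10 or 0.5% replicate 2). In F. rodentium (2 at 2.5%, slope 2), leaving out libraries 76 to 81 or ribosomal protein scaling gave 1 at 2.5%, and for the slope both, RLE, 50000 counts and the covariate gave 1. Leaving out each library gave 1 to 3 at 2.5% (1 without 0% replicate 4 or 2.5% replicate 3) and 1 to 2 for the slope.

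In L.bacterium335 (17, 15 and 14), no filter gave 29, 28 and 25, slope 26. For 2.5 against 0.5% (2), RLE gave 15, leaving out libraries 76 to 81 1, the covariate 0 and ribosomal protein scaling 1. The slope (11) was 2 with 50000 counts, 3 with 50% breadth, 0 with the covariate and 2 with ribosomal protein scaling. recD2_1 turned to 0.71 with RLE. Between bacteria, recD in Acetatifactor minus F. rodentium was -2.89 without libraries 76 to 81 (permutation test, adjusted p = 1.41e-04, on F. rodentium controls at 0) and polA in D. muris minus F. rodentium 0.74 (adjusted p = 0.0660), and recG there was 2.13 with a prior count of 0.5 (adjusted p = 0.0388). X. muris members stayed at 0 in every alternative run at 2.5%.

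RLE moved the median fitted log2 fold change of all features (in L.bacterium335 mostly against controls at 0, where fitted values depend on the prior count) from 1.81 to 3.84 in Acetatifactor, 7.94 to 9.20 in L.bacterium335, 0.01 to 0.12 in F. rodentium and 0.51 to 0.25 in X. muris, and ribosomal protein scaling moved it to 0.08, 8.48, -0.06 and 0.62. The cause of these shifts was not tested. The minimum of 50000 counts could not be run against 0% in Acetatifactor, D. muris and X. muris, nor 50% breadth in Acetatifactor, L.bacterium335 and X. muris. Low counts kept 75 members out of the tests.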
